A study of Mus musculus with 23 samples.

Results

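The genes described here encode 10 secreted glycoproteins of the extracellular matrix: the fibulins Fbln1, Fbln2 and Fbln5, the matrilins Matn2, Matn3 and Matn4, the fibronectin type III proteins Abi3bp and Fndc1, matrix Gla protein (Mgp) and cartilage oligomeric matrix protein (Comp). They are 10 of the 12393 genes that had a probe set of their own, and 13 of the 22626 probe sets tested named one of them alone. Where a gene had several, the probe set described was chosen by its mean log2 value over the 23 arrays, the brightest being taken. No difference between groups entered that rule, but the 10 genes were picked with earlier results of these data known, so counts over them describe these arrays and support nothing further.

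RNA from mouse cells was hybridised to 23 Affymetrix arrays to study the antagonism of Snf5, the product of Smarcb1 and a member of the SWI/SNF complex that moves nucleosomes, and Ezh2, the histone methyltransferase of the Polycomb complex PRC2. Fibroblasts of E13.5 mouse embryos (MEFs) were either Ezh2-deficient (3 arrays, with 3 wild-type arrays as their own set) or deficient in both Snf5 and Ezh2 (3 arrays, again with 3 wild-type arrays). Snf5-deficient lymphomas, from which CD8+ T cells had been purified (5 arrays), were set against purified CD8+ T cells of wild-type mice (6 arrays), all from mice 10 to 15 weeks old. The genes were inactivated conditionally in the MEFs, and the sources used here do not give the Cre driver, the way it was delivered or the number of MEF lines. No group lacked Snf5 alone among the MEFs.

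Ezh2 was lower by log2 -2.18 in Ezh2-deficient MEFs and by -1.66 in Snf5 Ezh2-deficient MEFs than in wild-type MEFs. Smarcb1 was lower by -2.46 in Snf5 Ezh2-deficient MEFs and by -3.65 in lymphomas than in their wild-type cells (limma, adjusted p from 1.01e-07 to 0.00244 over these 4 differences). Both MEF sets contained the same 3 wild-type hybridisations. Over 7349 bright probe sets the SD between the sets was 0.0266 to 0.0287 for controls of equal number and 0.141 to 0.163 for controls of unequal number. They were counted once, so both MEF comparisons share their controls. Ezh2-deficient arrays 2 and 3 read 9.56 and 9.52 for Xist, against 6.45 on array 1. They read 3.65 and 4.0 for the Y-linked gene Eif2s3y, against 8.24 on array 1. All wild-type and Snf5 Ezh2-deficient MEF arrays read 8.02 to 8.53 for Eif2s3y and 6.19 to 6.39 for Xist. Wild-type CD8+ arrays 1 and 6 read at most 9.4 for the T cell gene Cd8b1, against at least 12.5 on the other 4, and 14.2 for the myeloid gene Lyz2. The mean log2 level of 12 fibroblast markers was 10.97 to 11.53 on MEF arrays, against 6.89 to 7.59 on the separately normalised T cell arrays. In MEFs all 12 lay above the lowest 25% of the array on at least 1 array of each group. In wild-type CD8+ cells 4 of the 12, and in lymphomas 2, lay in the lowest 25% on all arrays, so that rule separates the cell types little.

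Matrix glycoproteins of these families link collagens, elastic fibres, basement membranes and cells. Fibulins carry calcium-binding EGF-like repeats and bind fibronectin, nidogen and tropoelastin. Matrilins carry von Willebrand factor A domains and form filaments that bind collagens and proteoglycans, and Comp is a pentameric thrombospondin of cartilage and tendon. Mgp is a small protein that needs vitamin K-dependent carboxylation, binds bone morphogenetic proteins and keeps cartilage and arteries from calcifying, as its loss in mice showed. Fibroblasts are a main source of several of these proteins, while T cells are not known for them.

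Promoter sequences are shown for 5 genes whose level differed between Snf5 Ezh2-deficient and wild-type MEFs, 4 higher and 1 lower, so that a reader can see the sequence around their starts. RefSeq windows of assembly GRCm38.p6, from 250 bases before to 50 bases after an annotated start, were at hand for 6 of the 10 genes (9 windows). Matn4 and Fbln1 have 2 windows each, of which 1 is printed. All are printed 5′ to 3′ on the strand of the gene, and capitals mark matches to a searched motif of 6 or more letters. The windows are those of Fndc1 (chr17:7827253-7827552, minus strand), Matn4 (chr2:164404769-164405068, minus strand), Fbln1 (chr15:85205699-85205998, plus strand), Matn3 (chr12:8947679-8947978, plus strand) and, as the gene that was lower, Fbln2 (chr6:91212514-91212813, plus strand).
Fndc1: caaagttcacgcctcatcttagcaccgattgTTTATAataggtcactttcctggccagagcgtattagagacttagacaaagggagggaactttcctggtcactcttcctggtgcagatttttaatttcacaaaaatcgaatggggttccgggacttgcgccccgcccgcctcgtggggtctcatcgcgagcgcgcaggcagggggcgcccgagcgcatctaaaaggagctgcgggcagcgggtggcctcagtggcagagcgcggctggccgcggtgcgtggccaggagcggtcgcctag
Matn4: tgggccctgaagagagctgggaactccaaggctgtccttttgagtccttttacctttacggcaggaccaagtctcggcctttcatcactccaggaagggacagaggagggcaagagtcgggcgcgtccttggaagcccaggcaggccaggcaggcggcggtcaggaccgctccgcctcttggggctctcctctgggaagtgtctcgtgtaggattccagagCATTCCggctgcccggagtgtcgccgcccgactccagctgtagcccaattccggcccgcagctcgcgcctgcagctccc
Fbln1: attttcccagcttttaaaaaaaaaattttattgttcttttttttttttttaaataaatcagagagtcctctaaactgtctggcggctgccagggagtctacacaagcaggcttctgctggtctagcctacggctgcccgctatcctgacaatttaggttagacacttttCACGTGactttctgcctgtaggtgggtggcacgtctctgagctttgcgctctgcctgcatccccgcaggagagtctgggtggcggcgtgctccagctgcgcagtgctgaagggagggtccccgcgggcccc
Matn3: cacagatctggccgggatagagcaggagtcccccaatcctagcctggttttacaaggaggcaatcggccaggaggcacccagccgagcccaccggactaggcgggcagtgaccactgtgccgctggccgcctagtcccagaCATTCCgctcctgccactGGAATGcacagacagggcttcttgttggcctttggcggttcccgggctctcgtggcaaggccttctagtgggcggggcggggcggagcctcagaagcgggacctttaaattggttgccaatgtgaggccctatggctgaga
Fbln2: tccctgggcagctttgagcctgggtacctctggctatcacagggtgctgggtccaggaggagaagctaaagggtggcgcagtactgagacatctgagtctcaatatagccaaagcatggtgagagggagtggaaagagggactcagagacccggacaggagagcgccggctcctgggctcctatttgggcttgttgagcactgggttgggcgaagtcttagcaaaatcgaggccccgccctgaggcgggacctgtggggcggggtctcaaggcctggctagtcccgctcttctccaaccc
On either strand, the searched motifs were TATAAA as the TATA box, CACGTG as the E-box, TGANTCA as the AP-1 motif, CAGAC as the Smad motif, GGAATG as the TEAD motif and TTCNNNGAA as the STAT motif, none of which lies within another. The capitals in the Fndc1 window are TATAAA read on the other strand, a motif in 13.6% of all 32851 windows. In Matn4 and Matn3 they are GGAATG on either strand (14.7% of windows), with 1 match in Matn4 and 2 in Matn3, and in Fbln1 they are CACGTG (7.15%). The Fbln2 window held none of the motifs of any length. CG pairs numbered 25 in the Fndc1, 19 in the Matn4, 12 in the Fbln1, 15 in the Matn3 and 10 in the Fbln2 window, against a median of 7 over all windows. The Matn4 window that is not printed (chr2:164405111-164405410, minus strand) held 9 CG pairs and 0 matches to GGAATG, and that of Fbln1 (chr15:85205758-85206057, plus strand) held 24 CG pairs and the same CACGTG. A match describes the letters and not a bound site.

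Loss of Ezh2 with and without loss of Snf5 was set against wild type in MEFs, and in 8 of the 10 genes the level was higher in Snf5 Ezh2-deficient MEFs. Fbln2 was the 1 gene that fell there, and Comp did not pass. The called share of all genes in that comparison was 27.5% (13.2% higher and 14.3% lower). In 9 of the 10 genes the groups did not overlap, as in 43.2% of all genes. The median of the 10 log2 fold changes was 1.03, beside 0 over all genes, and 7 of the 10 changed at least 2-fold. In Ezh2-deficient MEFs 1 of the 10 genes passed, Mgp, which was lower, where 3.49% of all genes passed (1.02% higher and 2.47% lower). The median of the 10 was -0.14 there, beside 0 over all genes. In bulk RNA of this kind, fewer cells of a type and less RNA per cell cannot be told apart.

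**Figure D1:**
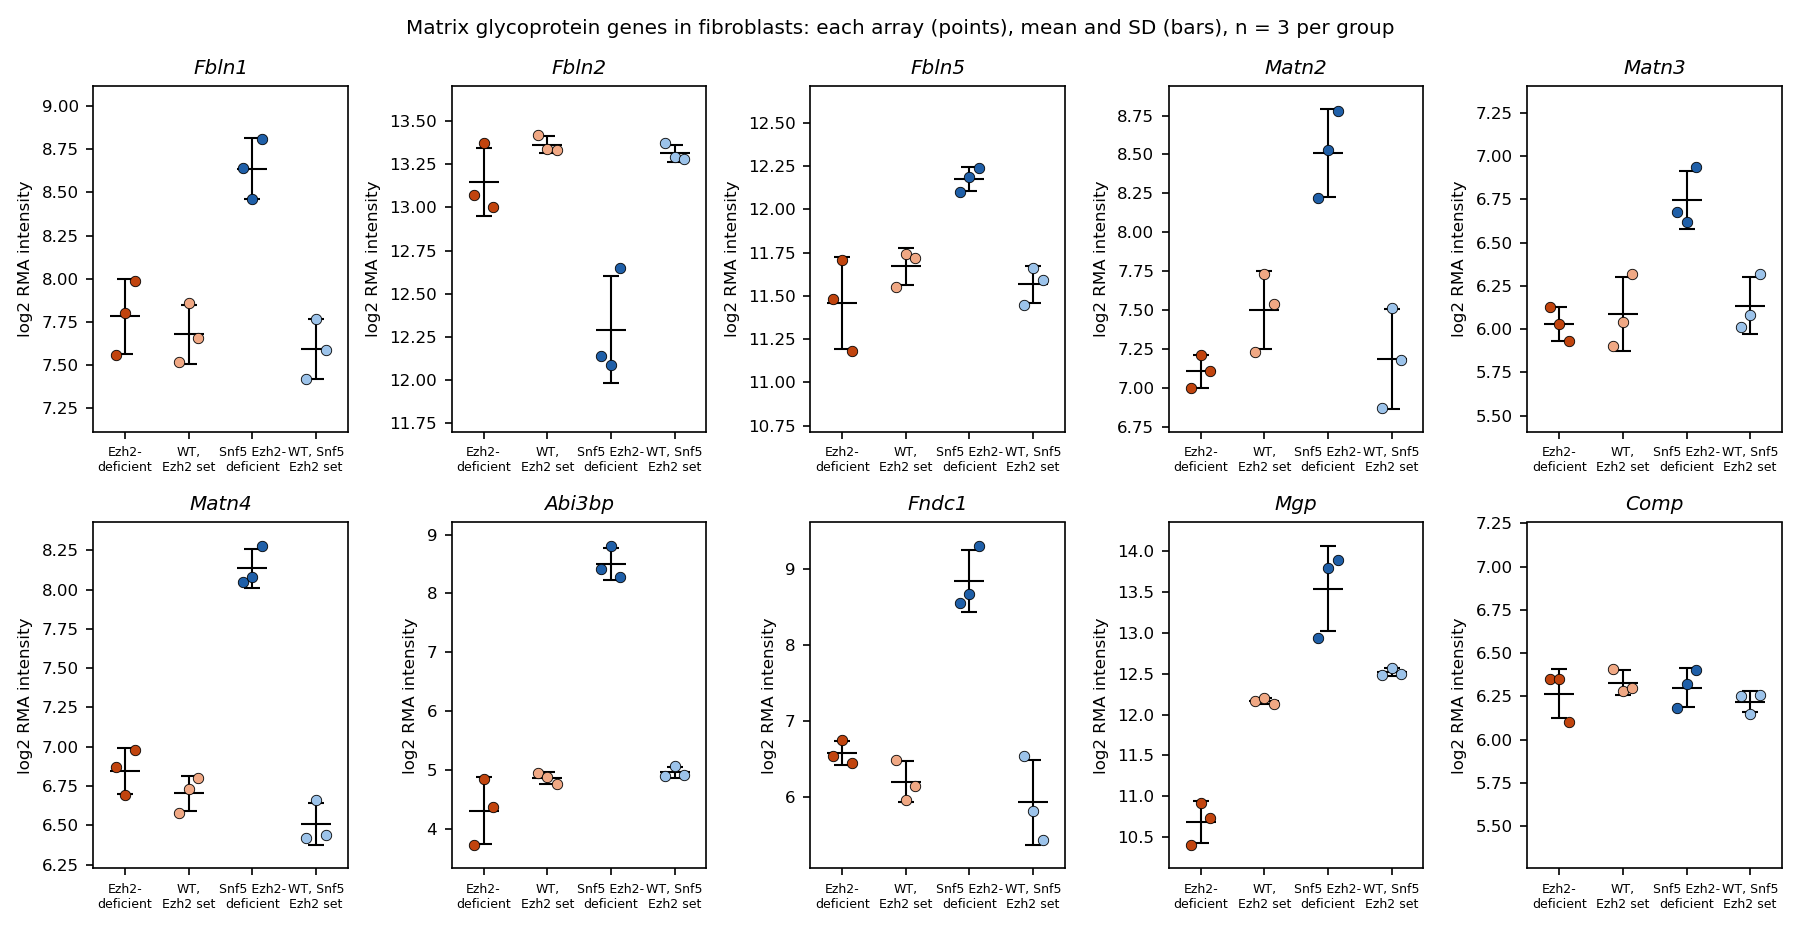
Log2 RMA intensity (y axis, a window of its own per gene, at least 2 log2 units high) of the 10 genes on each MEF array. Points are arrays and bars the mean and SD of 3 arrays, with each mutant group left of the wild-type arrays of its own set; Abi3bp, Fndc1, Matn4 and Mgp stand highest in Snf5 Ezh2-deficient MEFs, Fbln2 stands lowest there, and Mgp stands lowest in Ezh2-deficient MEFs.

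Abi3bp, which encodes a matrix protein first found by its binding to the adaptor ABI3, had the largest change of the 10. It read log2 8.41, 8.81 and 8.28 in Snf5 Ezh2-deficient MEFs, against 4.91, 5.07 and 4.92 in their wild-type controls. All 3 double-mutant arrays lay more than 3 log2 units above every control, and the fitted rise was 11.6-fold (log2 fold change 3.53, SE 0.233, adjusted p = 7.11e-06). In Ezh2-deficient MEFs it read 3.73, 4.85 and 4.37, against 4.95, 4.89 and 4.76 in wild-type MEFs, with overlapping groups (-0.55, adjusted p = 0.186). Without Ezh2-deficient arrays 2 and 3 that difference was -1.14 and passed (limma, adjusted p = 0.0345), but then 1 Ezh2-deficient array remains, near the floor at 3.73, and is assumed to vary like the arrays of the other groups. The wild-type and Ezh2-deficient arrays all lay in the lowest 25% of their arrays' values, so the fold in the double mutant is one over values near the floor. A second Abi3bp probe set read 6.82, 7.34 and 7.36 in Snf5 Ezh2-deficient MEFs, against 4.13 to 4.3 in wild-type MEFs, a rise of 7.86-fold (2.97, SE 0.142, adjusted p = 1.7e-06). In the double mutant the main probe set thus moved up to between the 64.5 and 73.7 percentile of the array, where the wild-type arrays lay between 17.3 and 19.8.

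Fndc1 encodes a secreted protein with fibronectin type III repeats. Its levels were 8.55, 8.68 and 9.31 in Snf5 Ezh2-deficient MEFs, against 6.54, 5.82 and 5.43 in wild-type MEFs. The groups did not overlap, and the rise was 7.55-fold (2.92, SE 0.217, adjusted p = 1.2e-05). The 3 control readings spread over more than 1 log2 unit, and on control array 3 the summaries of the 2 sets differed by 0.73. In Ezh2-deficient MEFs Fndc1 read 6.54, 6.75 and 6.45, against 6.49, 5.96 and 6.15 in wild-type MEFs. These overlapped by 1 control array, and the difference of 0.38 did not pass (95% interval -0.1 to 0.86, adjusted p = 0.309).

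Mgp was the 1 gene of the 10 that passed in both comparisons with wild type, and it lay on opposite sides. It read 10.4, 10.92 and 10.73 in Ezh2-deficient MEFs, against 12.16, 12.2 and 12.13 in wild-type MEFs. Every Ezh2-deficient array was below every control, a fall of 2.79-fold (-1.48, SE 0.219, adjusted p = 0.0104). In Snf5 Ezh2-deficient MEFs it read 12.94, 13.8 and 13.89, against 12.48, 12.57 and 12.5 in the controls of that set. All 3 stood above the controls, with array 1 nearest to them, and the rise was 2.04-fold (1.03, SE 0.219, adjusted p = 0.00601). Set directly against Ezh2-deficient MEFs, the double mutant was 5.69-fold higher (2.51, adjusted p = 3.67e-05). The order was therefore Snf5 Ezh2-deficient, wild type and Ezh2-deficient from high to low, and each neighbouring pair passed the test. The same controls read 0.35 higher in the second summary than in the first, an offset that was removed before the direct comparison. The fall ranged from -1.77 to -1.34 over all alternatives. The value of -1.77 came from leaving out Ezh2-deficient arrays 2 and 3, where the 1 array left is assumed to vary like the other groups.

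**Figure D2:**
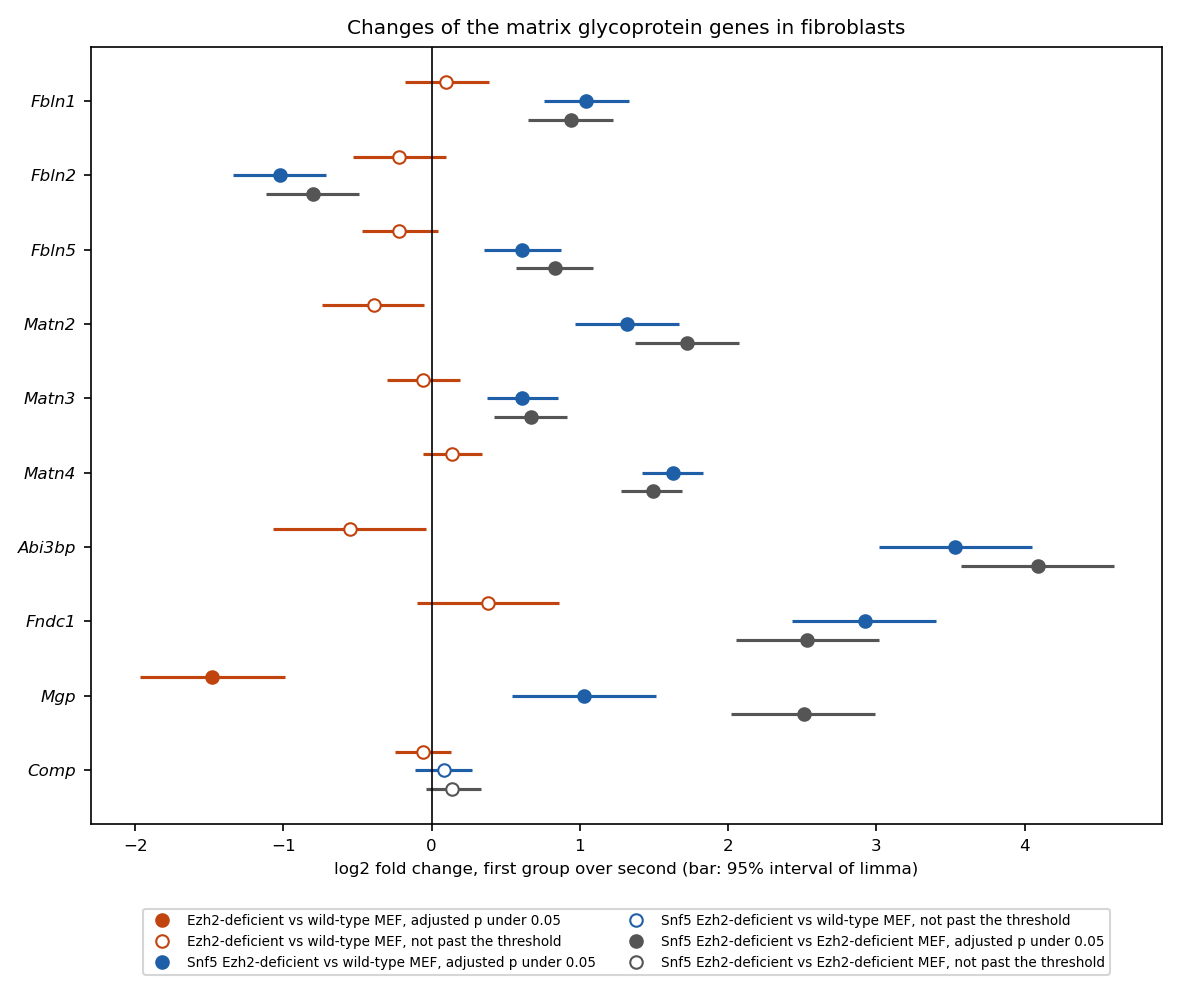
Log2 fold change (x axis) of each gene in 3 MEF comparisons, the first group named over the second, with the 95% interval of limma; filled points passed an adjusted p of 0.05. Mgp is left of 0 in Ezh2-deficient and right of 0 in Snf5 Ezh2-deficient MEFs, Fbln2 is left of 0 wherever Snf5 Ezh2-deficient MEFs are compared, and Comp stays at 0 within its intervals.

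Matn2, Matn3 and Matn4 all rose in the double mutant. Matn4, expressed in many tissues, read 8.05, 8.08 and 8.28 in Snf5 Ezh2-deficient MEFs, against 6.42, 6.66 and 6.44 in wild-type MEFs. With the smallest standard error of the rising genes, it was 3.08-fold higher (1.63, SE 0.0915, adjusted p = 3e-06). Matn2, a matrilin of loose connective tissue and basement membranes, read 8.22, 8.53 and 8.78 in Snf5 Ezh2-deficient MEFs, against 6.87, 7.51 and 7.18 in wild-type MEFs. The rise was 2.5-fold (1.32, SE 0.157, adjusted p = 2e-04), and 2.79-fold by its second probe set (adjusted p = 0.000135). Matn3, a cartilage matrilin mutated in a human epiphyseal dysplasia, read 6.68, 6.62 and 6.94 in Snf5 Ezh2-deficient MEFs, against 6.01, 6.08 and 6.32 in wild-type MEFs. Its groups were separate by a narrower gap, and the rise was 1.53-fold (0.61, SE 0.11, adjusted p = 0.00237).

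Loss of Ezh2 alone gave smaller differences for the matrilins, none past the threshold (limma). Matn2 read 7, 7.21 and 7.11 in Ezh2-deficient MEFs, against 7.23, 7.73 and 7.54 in wild-type MEFs. The groups did not overlap, yet the difference of -0.39 missed the threshold (unadjusted p = 0.0304, adjusted p = 0.168). Groups without overlap were found for 2 of the 10 genes, Matn2 and Mgp, and for 32.7% of all genes in that comparison. Matn4 differed by 0.14 (95% interval -0.06 to 0.34) and Matn3 by -0.06 (-0.3 to 0.19).

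Among the fibulins the directions split in the double mutant. Fbln1, a fibulin of basement membranes and elastic fibres, read 8.64, 8.46 and 8.81 in Snf5 Ezh2-deficient MEFs, against 7.42, 7.77 and 7.59 in wild-type MEFs. It rose 2.06-fold (1.04, SE 0.128, adjusted p = 0.000252), and its second probe set rose 2.12-fold. Fbln5, which binds tropoelastin and lysyl oxidase-like enzymes and is needed for elastic fibre assembly in mice, read 12.1, 12.19 and 12.24 in Snf5 Ezh2-deficient MEFs, against 11.45, 11.66 and 11.59 in wild-type MEFs. The rise of 1.53-fold was small beside those above, and no array of one group entered the range of the other (0.61, SE 0.116, adjusted p = 0.00319). Fbln2, which binds nidogen and perlecan and overlaps in function with Fbln5 in mouse vessels, went the other way, at 12.14, 12.09 and 12.65 in Snf5 Ezh2-deficient MEFs against 13.37, 13.29 and 13.28 in wild-type MEFs. It fell 2.03-fold (-1.02, SE 0.142, adjusted p = 0.000513), with array 3 the nearest to the controls. Even so, its lowest array stood at the 97.9 percentile of all probe sets.

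In Ezh2-deficient MEFs the 3 fibulins stayed on the near side of the threshold. Fbln1 differed by 0.1 (95% interval -0.18 to 0.39), Fbln2 by -0.22 (-0.53 to 0.1) and Fbln5 by -0.22 (-0.47 to 0.04). Fbln5 read 11.48, 11.71 and 11.18 in Ezh2-deficient MEFs, against 11.55, 11.74 and 11.72 in wild-type MEFs, so that 1 mutant array lay inside the control range.

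Comp did not differ past the threshold in any MEF comparison. It read 6.18, 6.32 and 6.4 in Snf5 Ezh2-deficient MEFs, against 6.25, 6.15 and 6.26 in wild-type MEFs, and 6.35, 6.35 and 6.1 in Ezh2-deficient MEFs, against 6.41, 6.28 and 6.3 in wild-type MEFs. Both pairs of groups overlapped. The difference of the double mutant was 0.08 with a 95% interval of -0.11 to 0.27 (adjusted p = 0.547), and that of the Ezh2-deficient MEFs -0.06 with an interval of -0.25 to 0.13 (adjusted p = 0.687). On all MEF arrays Comp lay between the 32.3 and 37.9 percentile, and the values hold no call of whether such a probe set is detected.

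The double mutant was also compared with Ezh2-deficient MEFs, from which its label differs by the added loss of Snf5. Ezh2-deficient arrays 2 and 3 also differed from all 3 double-mutant arrays in Y-linked Eif2s3y (3.65 and 4.0, against 8.14, 8.16 and 8.53). The part of that difference in the values below was not tested. Ezh2 itself read higher in the double mutant than in Ezh2-deficient MEFs (log2 fold change 0.52, adjusted p = 0.00812), so the groups differ in the measured Ezh2 level as well. There 8 of the 10 genes were higher and 1 lower, where 29.9% of all genes passed (16.3% higher and 13.6% lower), and the median of the 10 was 1.21 beside -0.03 over all genes. The groups did not overlap in 9 of the 10, as in 44.2% of all genes. After Abi3bp (log2 fold change 4.09), the sizes were 2.53 for Fndc1, 2.51 for Mgp, 1.72 for Matn2 and 1.49 for Matn4. Smaller were 0.94 for Fbln1, 0.83 for Fbln5 and 0.67 for Matn3. Fbln2 was lower by -0.8 (adjusted p = 0.00221), and Comp differed by 0.14 (adjusted p = 0.238). This comparison shares its Snf5 Ezh2-deficient arrays with the one against wild type, so its count is not a second observation.

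Markers of cell types were set beside these genes in the double mutant, where 27.5% of all genes were called. The called share was 20% of the chondrocyte, 33.3% of the endothelial and 75% of the smooth muscle markers. It was 16.7% of the fibroblast markers, 20% of the epithelial markers and 0% of the T cell, B cell and macrophage markers. The summed intensity of 5 chondrocyte markers ranged from 1024 to 1521 in Snf5 Ezh2-deficient MEFs, against 521 to 722 in wild-type MEFs, and 1 of the 5, Col2a1, rose. Acan and Sox9, which define chondrocytes, differed by -0.05 and 0.14 without passing. The 6 endothelial markers summed to 523 to 643 in Snf5 Ezh2-deficient MEFs, against 440 to 479 in wild-type MEFs, with Tek higher by 1.46 and Emcn lower by -0.53. The 4 smooth muscle markers summed to 36356 to 40239 in the double mutant, against 41743 to 45738 in wild-type MEFs, and 1 rose, Myh11 (0.98), while Cnn1 (-0.75) and Tagln (-0.38) fell. Of the 12 fibroblast markers 1 rose, the growth factor receptor gene Pdgfra (1.76), and 1 fell, Col5a1 (-0.91), with sums of 66218 to 75457 in the double mutant against 73201 to 78001 in wild-type MEFs. The 5 epithelial markers summed to 560 to 643 in the double mutant, against 583 to 705 in wild-type MEFs, with overlap. Their mean log2 level was 5.85 to 5.95 in the double mutant, against 6.11 to 6.21 in wild-type MEFs. Of these markers 1, Krt18, fell (-1.2, limma, adjusted p = 0.000578). The part of these cell type markers in the results above was not tested.

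Genes that work with these glycoproteins were followed through lists by role. Of 3 measured relatives, Efemp1, Fbln7 and Matn1, 0 passed in the double mutant by limma (0 also at an unadjusted p under 0.05), with differences from -0.03 to 0.05. In the elastic fibre and microfibril list 3 of 15 rose and 5 fell, so that 53.3% were called where 27.5% of all genes were. Fbn2, a fibrillin of developing microfibrils, rose by 0.9, Loxl3, a lysyl oxidase, by 0.63 and Eln, tropoelastin itself, by 0.54, while the lysyl oxidase gene Loxl4 fell by 1.76 (adjusted p = 1.21e-06). Loxl4 read 7.37, 7.34 and 7.45 in Snf5 Ezh2-deficient MEFs, against 9.07, 9.12 and 9.25 in wild-type MEFs. Members of this list thus moved both ways, with a median of -0.07 beside 0 over all genes.

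Cartilage genes and thrombospondins are the partners of Matn3 and Comp. In the cartilage list 4 of 14 rose in the double mutant (28.6%, beside 27.5% called over all genes), all of them collagens: Col2a1 by 1.54, Col11a1 by 1.51, Col10a1 by 1.24 and Col11a2 by 0.26. Col11a1 read 11.57, 11.58 and 11.58 in Snf5 Ezh2-deficient MEFs, against 10.12, 10.14 and 9.95 in wild-type MEFs. The other 10, Sox5, Sox6, Sox9, Acan and Hapln1 among them, did not pass, and the median of the list was 0.04. In the thrombospondin list 3 of 9 rose and 1 fell, a called share of 44.4%. Adamts4, a protease that cuts aggrecan and Comp, rose by 1.12, Adamts1 by 0.57 and Thbs3 by 0.32, and Thbs1 fell by 0.61.

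Among 19 genes of Mgp function 7 rose and 2 fell in the double mutant (47.4% called, beside 27.5% of all genes), with a median of 0.07. Those that rose included Vkorc1, the vitamin K reductase that feeds carboxylation (0.96, adjusted p = 4.09e-05), Nqo1, another quinone reductase (1.24), Id2, a target of bone morphogenetic protein signalling (0.99), and Bmp6, a ligand of that pathway (2.17, adjusted p = 2.15e-06). Bmp6 read 7.27, 7.2 and 7.09 in Snf5 Ezh2-deficient MEFs, against 5.24, 5.09 and 4.7 in wild-type MEFs. All 3 wild-type arrays lay in the lowest 25% for Bmp6, so this fold too is over values near the floor. The 2 that fell were Id1, another target of the pathway (-0.9, adjusted p = 0.000559), and the receptor gene Acvrl1 (-0.69, adjusted p = 0.000755). The 3 measured Id genes thus moved both ways, Id3 rising by 0.32. In Ezh2-deficient MEFs 1 of the 19 passed (5.26%, beside 3.49% of all genes), again Acvrl1 (-0.66, adjusted p = 0.0126). Acvrl1 was thus lower in both mutants while Mgp lay on opposite sides.

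Adhesive glycoproteins, small proteoglycans and integrins completed the set. The called share of all genes in the double mutant was 27.5%, beside which the shares below are given. In the double mutant 7 of 25 adhesive glycoprotein genes rose and 5 fell (48% called), among them Lama4 (1), Egfl6 (0.99), Dpt (-1.28) and Tgfbi (-0.89). Egfl6 lay in the lowest 25% of every MEF array, the double mutant included, and Dpt on 2 of 3 double-mutant arrays. Of 11 small leucine-rich proteoglycans 1 rose, Ogn (1.03), and 1 fell, Bgn (-0.65), a called share of 18.2%. Of 12 integrin receptor genes 5 rose and 4 fell (75% called). Itga8, a receptor for nephronectin and fibronectin, rose by 1.47, while the fibronectin receptor Itga5 fell by 1.24, Itga3 by 0.97 and Itga7 by 0.76.

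With Ezh2 lost alone, each of these lists held at most 1 called gene, where 3.49% of all genes were called. The thrombospondin gene Thbs3 was lower (-0.85, adjusted p = 0.000922), at 7.54, 7.5 and 7.26 in Ezh2-deficient MEFs, against 8.22, 8.39 and 8.26 in wild-type MEFs. Thbs3 therefore passed in the same directions as Mgp in both comparisons with wild type. The other calls were Fmod (-0.94), Nid1 (0.44), Sox6 (-0.34), Itga2 (0.37, with all 3 wild-type arrays in the lowest 25%) and Acvrl1, given above. No gene passed in the elastic fibre list by limma, where 4 of 15 had an unadjusted p under 0.05. Of the relatives Efemp1, Fbln7 and Matn1, 0 passed by limma, where 2 of 3 had an unadjusted p under 0.05 (list median 0.15).

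**Figure D3:**
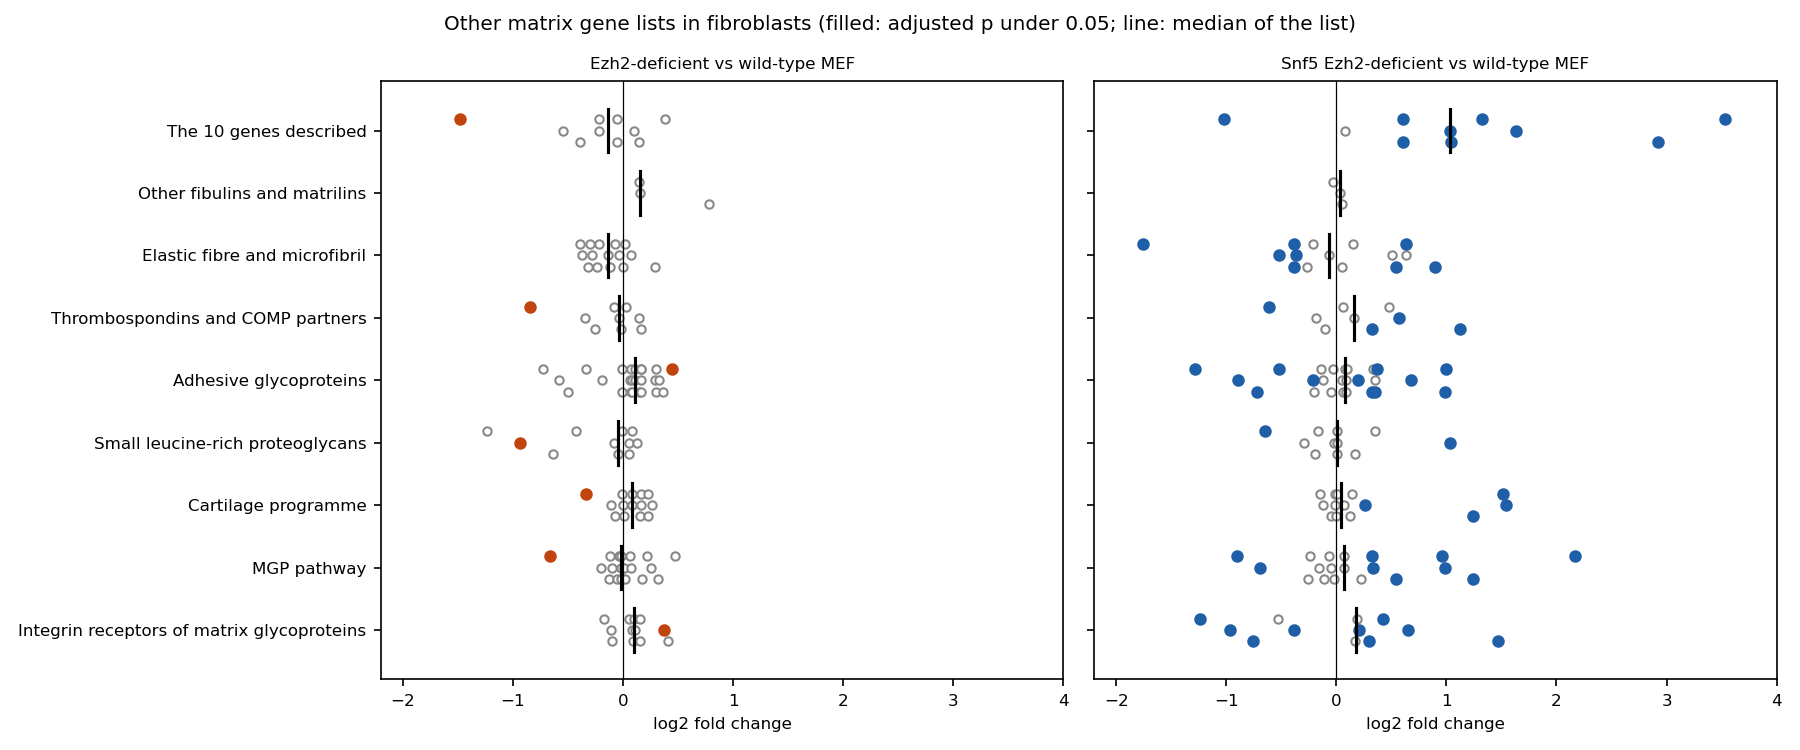
Log2 fold change (x axis) of every measured gene in 8 lists of matrix genes below the 10 genes described, in Ezh2-deficient MEFs (left) and Snf5 Ezh2-deficient MEFs (right) over wild-type MEFs. Filled points passed an adjusted p of 0.05 and vertical lines are list medians; in the right panel the median of the 10 genes lies at 1.03 and those of the 8 lists between -0.07 and 0.18.

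Likeness of pattern was described for the 3 genes with the largest range of group means, over the 9 distinct MEF arrays, which fall into 3 groups. The genes nearest to Abi3bp were Pigp (Pearson r = 0.995), Dctn4 (0.991) and Bcap29 (0.987). Nearest to Fndc1 were the peptide transporter gene Tap1 (0.991), Adgrl1 (0.99) and the growth factor gene Fgf18 (0.988). Nearest to Mgp were Agap3 (0.978), Pcdhb22 (0.973) and Vrk2 (0.972). The arrays share their normalisation and their groups, and with 12393 genes to choose from the highest values are high by selection. Fgf18 rose by 1.17 and Tap1 by 1.59 in the double mutant, whereas the genes nearest to Mgp differed by 0.11 to 0.23 there.

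Against the fibroblasts, most of the 10 genes read low on the T cell arrays. Fbln2, Fbln5 and Mgp stood at or above the 90 percentile on all MEF arrays. On the 11 T cell arrays Fbln2, Fbln5, Matn3 and Fndc1 lay in the lowest 25% of every array. Fbln2 moved between the 97.9 and 99.4 percentile in MEFs and between 9.2 and 19.7 in T cells. Fbln1, Matn4 and Comp sat between the 22.9 and 38.9 percentile on the T cell arrays, and they too carried no detection call. The arrays of the 2 cell types were normalised apart, so these places are given side by side and were not tested.

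**Figure D4:**
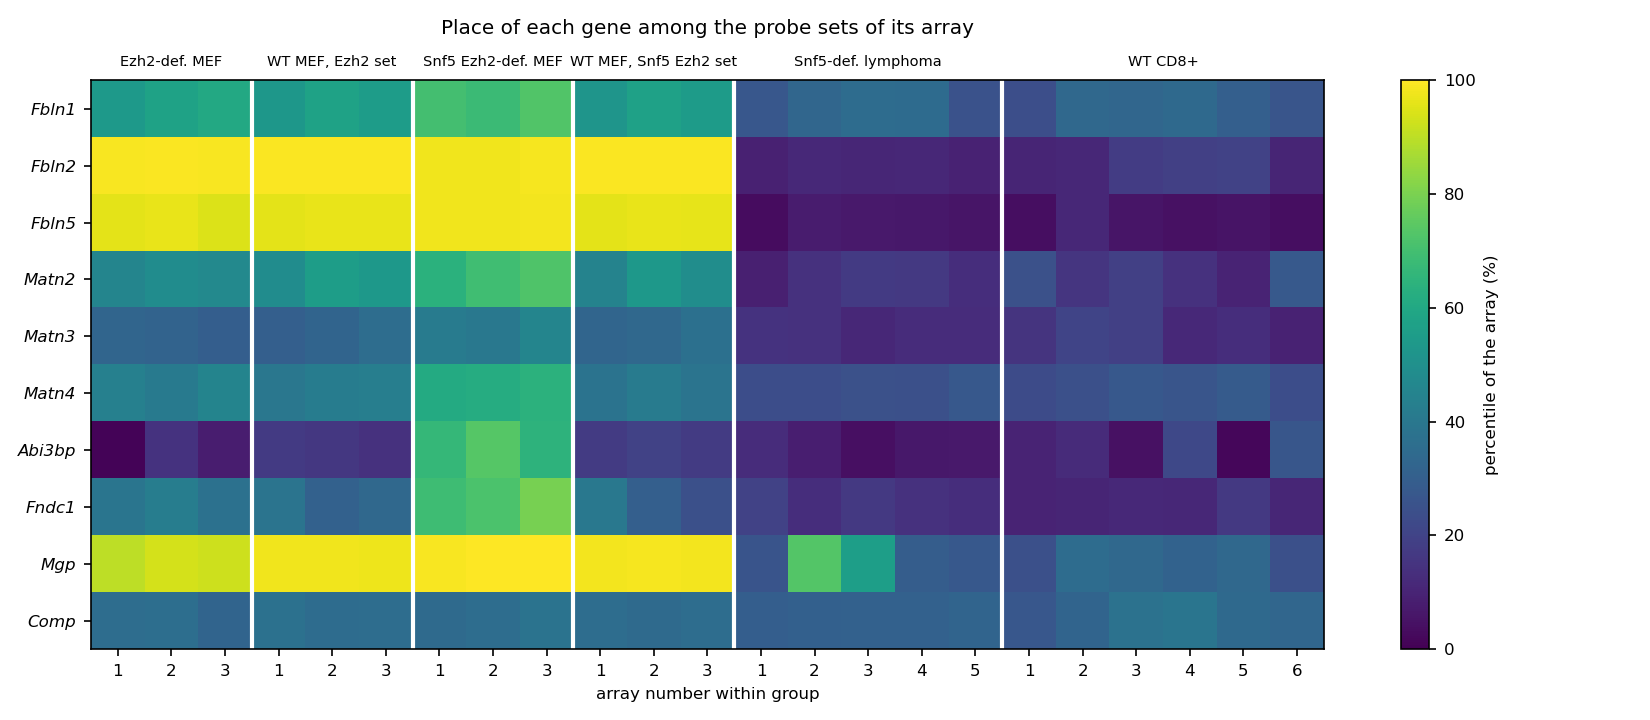
Percentile of each gene among all probe sets of its array (colour, 0 to 100%), with arrays as columns in 6 groups and genes as rows. Fbln2, Fbln5 and Mgp stand near the top of every MEF array, Abi3bp leaves the lowest 25% in Snf5 Ezh2-deficient MEFs, and Mgp stands apart on lymphoma arrays 2 and 3.

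Lymphomas were set against wild-type CD8+ cells. No group held lymphomas with intact Snf5, so loss of Snf5 and the tumour state cannot be told apart here. In this comparison 0 of the 10 genes passed by limma (0 at an unadjusted p under 0.05, and 0 by exact permutation, whose smallest p over the 10 was 0.0823). Among all genes 16.8% passed (9.13% higher and 7.71% lower). The median of the 10 was -0.18, beside -0.07 over all genes. Fbln1 read 5.8 ± 0.488 in lymphomas and 5.69 ± 0.414 in wild-type cells (SD, n = 5 and 6), Matn4 5.14 ± 0.181 in lymphomas and 5.25 ± 0.258 in wild-type cells, and Comp 5.76 ± 0.0987 in lymphomas and 6.06 ± 0.414 in wild-type cells. Without wild-type arrays 1 and 6, the 2 with low Cd8b1, Fbln2 alone of the 10 passed (-0.65, adjusted p = 0.0281), at 3.94 ± 0.087 in lymphomas and near the floor in both groups. Matn2 differed by -0.51 (adjusted p = 0.184) and was highest on those same 2 wild-type arrays, at 5.08 and 5.52.

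Mgp was uneven between the lymphomas. It read 5.22, 10.53, 8.92, 5.6 and 5.44 in the 5 lymphomas, against 5.07 to 6.23 with a median of 5.87 in the 6 wild-type samples. Arrays 2 and 3 were above every wild-type array, and the other 3 lay inside the wild-type range. The mean difference of 1.42 did not pass (SE 0.907, adjusted p = 0.319; exact two-sided permutation p = 0.262, where the smallest possible is 0.00216). Without lymphoma 2 it was 0.58. Of the 12 fibroblast markers, 3 lay above every wild-type array on lymphoma array 2, 6 within the wild-type range and 3 below it. On array 3 the counts were 4 above, 7 within and 1 below, and on the 3 lymphoma arrays with low Mgp 3 to 5 markers lay above. Pdgfra (6.07 on array 2 and 4.47 on array 3, against at most 4.12 in wild-type cells), Vim (13.98 and 13.87, against at most 13.66) and S100a4 (14.18 and 14.27, against at most 13.72) were above on both arrays. They were not particular to these arrays. On arrays 1, 4 and 5, where Mgp was low, S100a4 read 14.1, 14.08 and 13.98, above every wild-type array each time. Vim read 13.82, 13.55 and 13.75 there, above on arrays 1 and 5. Pdgfra read 4.11, 5.57 and 4.12, above on array 4. The matrix genes Col1a1, Col1a2, Col3a1, Col5a1, Col6a1, Dcn and Lum were within or below the wild-type range on arrays 2 and 3. Col1a2 was higher, at 6.47, 7.08 and 7.07, on the 3 lymphoma arrays where Mgp was low. Arrays 2, 3 and 4 also read 11.81, 11.93 and 12.55 for the Y-linked gene Eif2s3y, against 3.45 and 3.32 on arrays 1 and 5. Wild-type arrays 3 and 4 read 9.84 and 6.11 for it, and the other wild-type arrays 3.2 to 3.91. Xist read 5.44, 5.15 and 4.85 on lymphoma arrays 2, 3 and 4, and 13.19 and 12.25 on lymphoma arrays 1 and 5. All 6 wild-type arrays read 12.85 to 13.51 for Xist, so these markers differ between the compared groups too. The part of these differences in the Mgp values and in the lymphoma comparison was not tested.

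Of the relatives Efemp1, Fbln7 and Matn1, 0 passed in the lymphomas by limma (0 also at an unadjusted p under 0.05). Genes of other lists did pass. Mfap5, a microfibril protein, read 8.98, 9.14, 10.16, 10.06 and 8.37 in lymphomas, against 4.26 to 4.65 in wild-type cells (4.87, SE 0.296, adjusted p = 9.49e-06). Thbs3, of the family of Comp, read 10.77, 10.19, 11.41, 10.89 and 11.1 in lymphomas, against 4.55 to 7.45 in wild-type cells (4.66, SE 0.478, adjusted p = 0.000214). All 5 lymphomas were high for both genes, in contrast to Mgp. Adamts4 was higher as well, at 5.2 to 7.84 in lymphomas against 3.5 to 4.25 in wild-type cells (2.43, adjusted p = 0.00396). For Mfap5 and Adamts4 all 6 wild-type arrays lay in the lowest 25%, so their differences are over values near the floor. In their lists 1 of 15 elastic fibre genes rose (6.67%) and 2 of 9 thrombospondin genes (22.2%), beside 9.13% over all genes, and 0 fell. Of the 19 genes of Mgp function 1 rose, the receptor gene Bmpr1a (2.76), and 4 fell, among them the inhibitory Smad7 (-4.19), the pyrophosphate transporter gene Ank (-2.03) and Acvrl1 (-1.88), which makes 26.3% called beside 16.8% over all genes. Other calls were Vwa1 (0.65), 1 of 25 adhesive glycoprotein genes, and Col11a2 (-1.07), 1 of 14 cartilage genes. Of 12 integrin genes 2 were called, Itga6 (-1.84) and Itga2 (-0.87). Vwa1 lay in the lowest 25% on all 6 wild-type and 3 of 5 lymphoma arrays. Itga2 lay there on 5 of 6 wild-type and all 5 lymphoma arrays, so both differences are over values near the floor. Of 11 proteoglycans 0 passed by limma (0 at an unadjusted p under 0.05). Beside these values, the 12 fibroblast markers summed to 35646 to 47117 in lymphomas, against 14301 to 33901 in wild-type cells, with S100a4 (2.02) as the 1 that rose, Pdgfrb (-0.53) as the 1 that fell and Col1a1 at 5.11 to 5.91 in lymphomas. These sums rest mostly on Thy1, Vim and S100a4, which read 10.06 to 14.27 over the T cell arrays of both groups. The other fibroblast markers read at most 9.69 there (Col5a1 on wild-type array 5). The 5 epithelial markers summed to 2393 to 8783 in lymphomas, against 429 to 2046 in wild-type cells, with Epcam higher (3.82) and Cdh1 lower (-3.59). The 4 B cell markers summed to 144 to 406 in lymphomas, against 1735 to 15930 in wild-type cells, and Cd79b fell (-4.01). Wild-type arrays 1 and 6, the 2 with low Cd8b1, read 12.06 and 11.69 for the B cell gene Cd79a. The other wild-type arrays read 7.17 to 9.03 for Cd79a. None of these fibroblast, epithelial and B cell sums overlapped between the groups. The T cell, macrophage, endothelial, smooth muscle and chondrocyte sums did overlap. Macrophage markers summed to 5947 to 23262 in lymphomas and to 1201 to 57577 in wild-type cells. T cell markers summed to 40992 to 64278 in lymphomas and to 23188 to 79178 in wild-type cells. The part of the marker genes in the changes above was not tested.

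**Figure D5:**
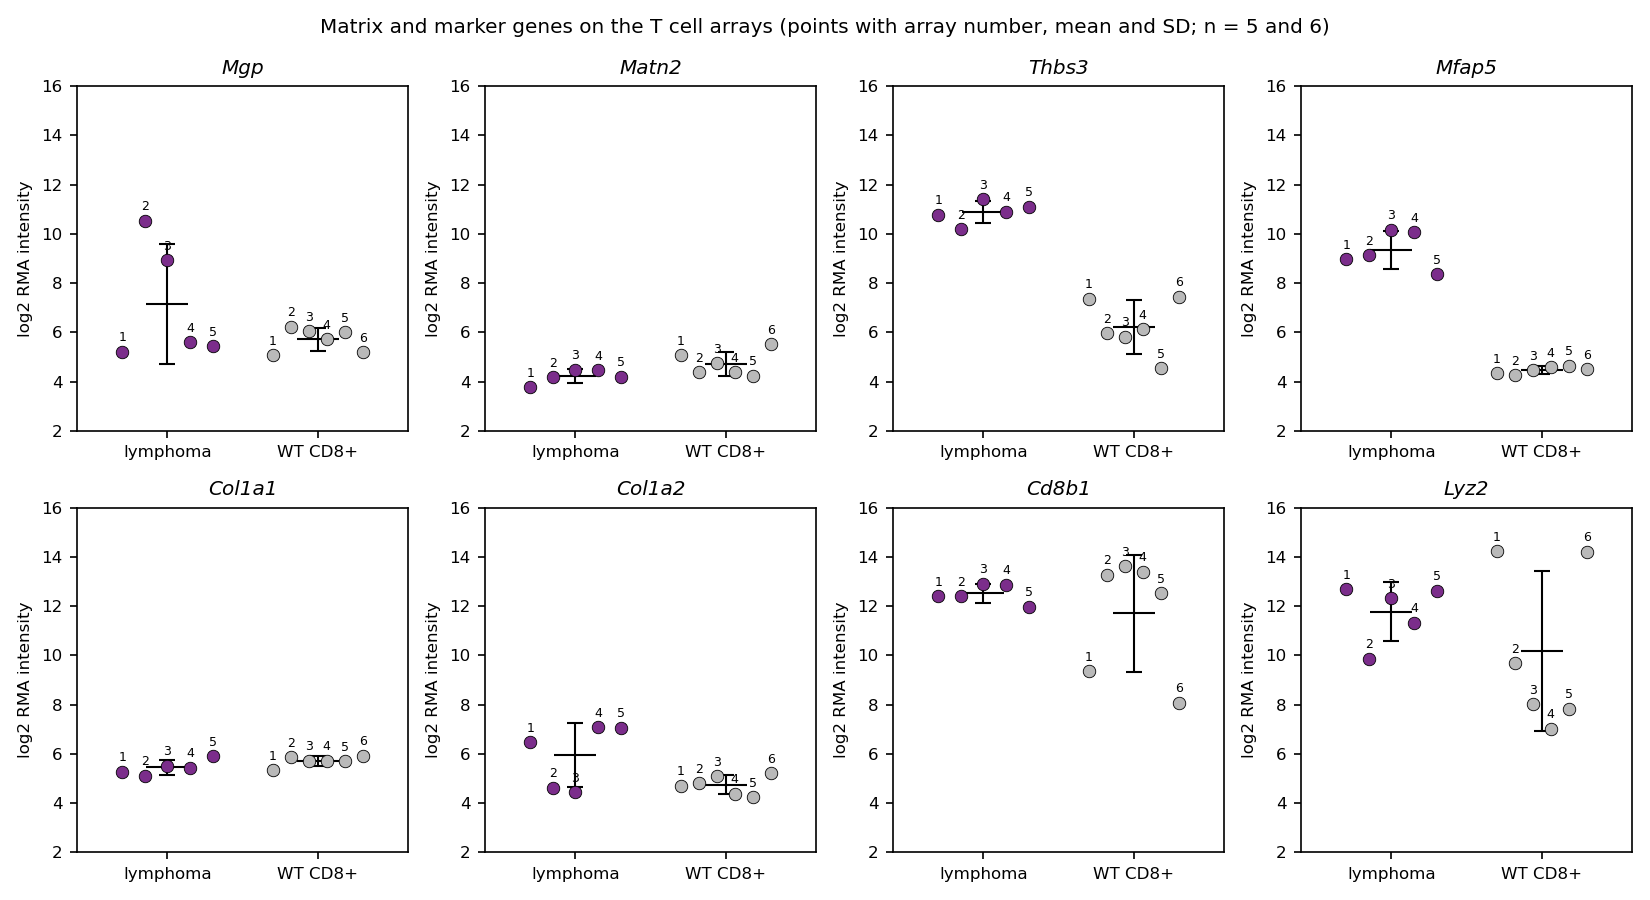
Log2 RMA intensity (y axis) of matrix and marker genes in the 5 lymphomas (left in each panel) and 6 wild-type CD8+ samples (right), with array numbers at the points and the mean and SD as bars. Mgp is high on lymphoma arrays 2 and 3 alone, Thbs3 and Mfap5 are high on all 5, and wild-type arrays 1 and 6 stand apart for Cd8b1 and Lyz2.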

How the data were processed

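Total RNA was measured on Affymetrix mouse 430A arrays. The deposited RMA intensity values, on a linear scale, were made by the authors with Robust Multichip Average, per the labels' protocols and the submitters' processing notes. RMA subtracts background, equalises the distributions of the arrays and combines the probes of a set, which compresses low values; its version is not stated. The values fell into 3 separately summarised blocks, so log2 levels of MEF and T cell arrays were not compared by a test. Deposited intensities were log2-transformed here.

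Testing covered 22626 probe sets, without 64 control ones. The platform annotation names 1 gene for 20380, several for 691 and none for 1555. The 3 repeated control arrays were averaged over both summaries after a per-probe-set offset brought the second MEF set to the first. limma 3.58.1 in R 4.3.3 (lmFit, eBayes) was fitted to 9 MEF arrays (6 residual degrees of freedom) and separately to 11 T cell arrays (9), with Benjamini-Hochberg adjustment over all probe sets and a threshold of 0.05. The median standard error was 0.0771 for MEFs and 0.236 for T cells. Lymphomas were also tested by exact permutation, and 3 arrays against 3 are too few for it. Array number and spread limit the precision. No label says that replicates, called biological in the titles, were separate cultures or animals, so p-values measure the spread between these samples.

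The members, gene lists and motifs were chosen with earlier results of these data known. Named were all 10 genes, Ezh2 and Smarcb1, up to 4 called genes of each list with the largest change, and the 3 nearest genes by correlation for 3 genes. Other genes, such as Acan, Sox9, Id1, Id3, Acvrl1, Vim, Cd8b1, Lyz2, Xist, Eif2s3y and stromal genes, were named after their values were seen. The fit was tested on simulated data. Alternatives covered the samples in the fit, the replicate block, dim probe sets, variance prior, a pseudocount of 16, normalisation, other probe sets and left-out arrays. RefSeq promoters carry build GRCm38.p6, and probe positions were not used.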

Additional observations from a re-analysis of the deposited data

Results flagged for a closer look

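In the 20 groups of 5 or 6 arrays tested for a single distant value, 2 were marked, where chance marks about 1 in 20. Fbln5 read 3.36 on lymphoma array 1, the lowest of 5, with a gap to the next array of 0.879 of the range, above the critical 0.71. Matn3 read 4.0 on lymphoma array 3, also the lowest, with a gap of 0.777 of the range. Both values lay in the lowest 25% of the array, where RMA values differ little, and neither gene passed in the lymphoma comparison.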

How the results depend on the processing

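Of the values of the 10 genes under the alternatives, 142 of 143 in Ezh2-deficient MEFs, 133 of 133 in Snf5 Ezh2-deficient MEFs, 143 of 143 between the mutants and 178 of 179 in lymphomas stayed on their side of the threshold. The exceptions were Abi3bp in Ezh2-deficient MEFs without arrays 2 and 3 (-1.14) and Fbln2 in lymphomas without wild-type arrays 1 and 6 (-0.65), alternatives chosen after seeing the data, which made the called genes 2 and 1 of 10; the cause was not tested. Another 5 values of 3 genes in Ezh2-deficient MEFs and 5 of 3 in lymphomas changed sign without being called, Abi3bp in lymphomas to 0.06 by its other probe set among them. The share of all genes called in Ezh2-deficient MEFs was 2.08% with each set alone, 1.72% with the replicate block, 0.944% without arrays 2 and 3, and 0.702% (without wild-type array 2) to 3.57% when 1 array was left out; fewer arrays enter 3 of these fits. Between the mutants it was 15.9% with 12 arrays in 4 groups and 17% without Ezh2-deficient arrays 2 and 3, and in lymphomas it was 26.4% without wild-type arrays 1 and 6. The main fit did not pair the samples by replicate number. Correlations of same-numbered arrays ran from -0.27 to 0.18 in MEFs, and those of different numbers from -0.31 to 0.35. In T cells they ran from 0.08 to 0.35 for equal numbers, where 4 of 5 were over 0.1, and from -0.26 to 0.29 for different numbers. These values do not settle whether T cell samples were paired, and the replicate block changed no call of the 10 genes. Values in the lowest 25% of an array limit the folds of Abi3bp, Bmp6, Egfl6, Dpt, Mfap5, Adamts4, Vwa1 and Itga2. The same holds for most of the 10 genes on T cell arrays. Without Ezh2-deficient arrays 2 and 3 the spread of that group is taken from the others.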
